A study of Mus musculus with 64 samples.

Results

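The genes described here are 34 mouse genes that mark T cells and natural killer (NK) cells, of 52636 genes counted in the series. They were chosen by name, as components of the T cell receptor complex and genes of T cell subsets, of cytotoxic granules and of NK receptors, and every one of the 34 was matched to a single row of the count table. These genes and the other lists below were chosen with earlier results of these data known. The shares of all tested genes set beside their counts are therefore descriptions and not independent tests. The count table held RNA sequencing of the brown fat (BAT) and the epididymal white fat (eWAT) of fat-specific Nampt knockout (FANKO) and wild-type (WT) mice, collected at zeitgeber time (ZT) 6, 10, 18 and 22, with 4 samples in each of 16 groups and 64 samples in all. Nampt encodes the enzyme that controls the rate of NAD salvage. FANKO mice carried the NamptTM1Jtree allele together with Adiponectin-Cre, and WT mice were their littermates without Cre. All mice were male and 2 to 4 months old. Adiponectin-Cre acts in adipocytes, so lymphocytes within the depots are not among the cells in which it deletes the allele.

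T cells recognize peptide antigens through a receptor whose variable chains signal through the CD3 chains, a kinase relay and an adaptor, and they divide into helper cells that carry CD4 and cytotoxic cells that carry CD8. NK cells lack this receptor, read balances of activating and inhibitory receptors instead, and kill with the same granule proteins as cytotoxic T cells. Both cell types are found in lean adipose tissue, where regulatory T cells in visceral fat and interferon gamma from lymphocytes are well known for their influence on macrophages and adipocytes.

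Libraries held 6117343 to 30544847 counted reads (median 15826651). Levels are given as CPM, the read count scaled to library size, after trimmed mean of M-values (TMM) scaling. Nampt itself ranged from 478 to 1450 CPM in WT BAT and from 108 to 186 CPM in FANKO BAT, without overlap, and from 111 to 309 CPM in WT eWAT and 101 to 131 CPM in FANKO eWAT, where the ranges overlapped. Ucp1, the uncoupling protein of brown fat, fell by 13.36 on the log2 scale from WT BAT to WT eWAT, matching the tissue labels. Reads from mitochondrial genes took a median of 24.6% of the reads in BAT of WT mice and 14.7% in BAT of FANKO mice, and of 6.55% and 10.7% in the eWAT of WT and FANKO mice. With mitochondrial genes left out of the scaling, 34 of the genes described here were higher in FANKO BAT and 27 in FANKO eWAT, the counts given below. Without TMM scaling, the median of all tested genes in FANKO against WT BAT moved from 0 to 0.58 on the log2 scale, and the share of called genes that were higher moved from 49.4% to 84.9% in BAT and from 54.8% to 21.8% in eWAT. In 10 libraries, genes of skeletal muscle exceeded 10 times or genes of the epididymis 4 times the median of their group, and without these 10 the counts were 34 and 26.

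All 34 T cell and NK cell genes were higher in FANKO BAT than in WT BAT, against a background of 33.1% of the 20249 tested genes called higher. Their median log2 fold change was 5.29, beside 0 over all tested genes, and single genes ranged from 0.58 for Lag3 to 8.97 for Pdcd1 (edgeR quasi-likelihood test with Benjamini-Hochberg adjustment, each past the threshold of 0.01). Every FANKO BAT sample lay above every WT BAT sample for 33 of the 34 genes, Lag3 being the exception, whereas 12.5% of all tested genes were separated in this way. Summed over the 34 genes, the level was 18.4 ± 3.57 CPM (SD, n = 16) in WT BAT and 368 ± 111 CPM (SD, n = 16) in FANKO BAT. In tissue RNA, a larger number of T or NK cells and more of these transcripts per cell cannot be told apart. All 34 genes passed the filter on low counts, but in WT BAT only 7 of them (Cd247, Foxp3, Prf1, Tbx21, Il2rb, Lag3 and Tcf7) reached the filter level of 0.632 CPM in at least 4 samples, so most passed through the groups in which they were high. The filter level was reached by all 34 genes in FANKO BAT, by 27 in WT eWAT and by 32 in FANKO eWAT.

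**Figure D1:**
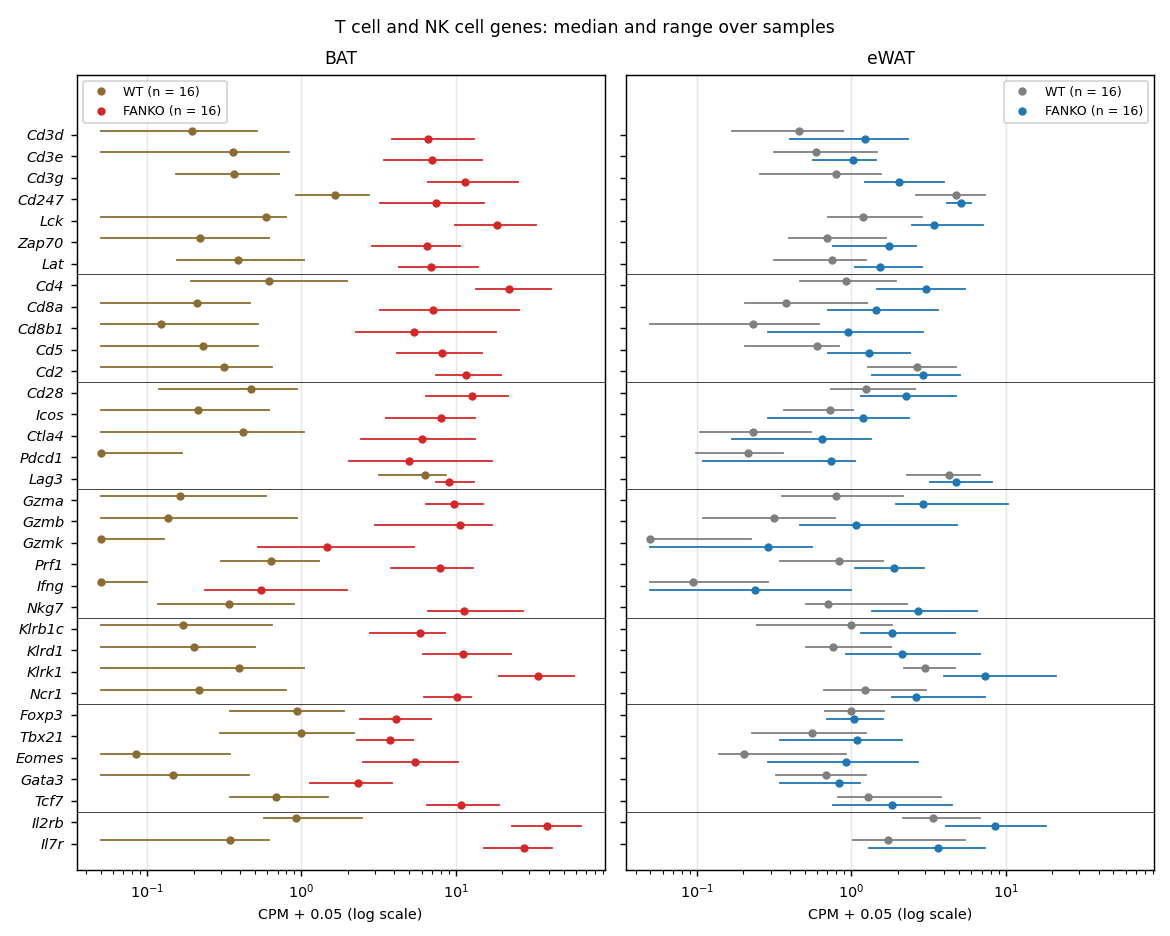
Level of each of the 34 genes in BAT (left) and eWAT (right), as CPM plus 0.05 on a log axis. Points are medians and lines run from the lowest to the highest of 16 samples. Horizontal rules separate roles. In BAT the WT and FANKO lines are apart for 33 genes and overlap for Lag3, and in eWAT they overlap for all 34.

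In eWAT the same 34 genes moved less. A total of 27 were higher in FANKO than in WT eWAT and 0 were lower, against a background of 27.6% of tested genes called higher and 22.8% called lower. The median log2 fold change of the 34 was 1.32, beside -0.02 over all tested genes, and the summed level was 39.9 ± 9.65 CPM (SD, n = 16) in WT and 81.0 ± 26.3 CPM (SD, n = 16) in FANKO eWAT. No gene of the 34 was separated between the genotypes in eWAT, where 4.57% of tested genes were. The 7 genes that did not pass the test were Cd3e, Cd247, Cd2, Lag3, Foxp3, Gata3 and Tcf7. All 6 genes of cytotoxic effectors and all 4 NK receptor genes passed, as did 5 of 7 genes of the receptor complex, 4 of 5 co-receptor and surface genes, 4 of 5 costimulation and checkpoint genes, both cytokine receptor genes and 2 of 5 transcription factor genes. Among the genes that passed, Gzmk and Ifng reached the filter level in neither eWAT group. A fit of the eWAT samples alone tested 32 of the 34 genes and called 25 higher. Icos was the called gene closest to the threshold (adjusted p = 0.00475 by the edgeR quasi-likelihood test), and it no longer passed under 7 alternatives, among them library size alone (0.45, adjusted p = 0.075) and the fits without replicate 2 (adjusted p = 0.0472) or replicate 3 (adjusted p = 0.132). Il7r and Ifng also lost the call without replicate 2 of each group, and Il7r, Cd28 and Tbx21 without replicate 3. With library size alone, Il7r (0.525, adjusted p = 0.0168) and Cd28 (0.552, adjusted p = 0.0155) lost it too by the edgeR quasi-likelihood test.

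**Figure D2:**
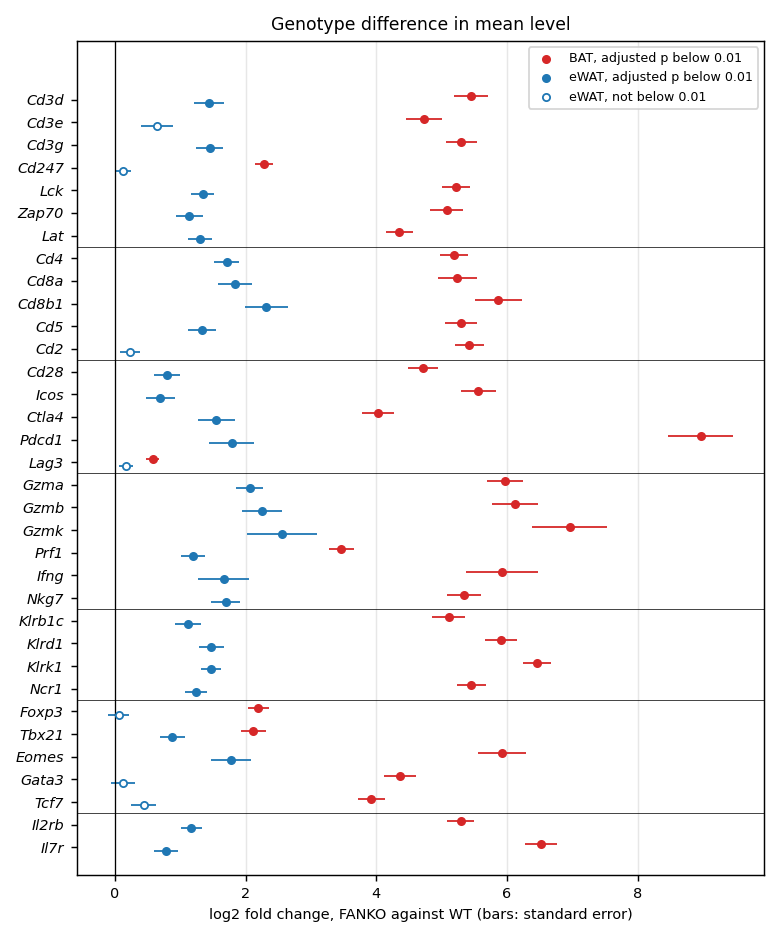
Log2 fold change of FANKO against WT for each of the 34 genes, with its standard error as a bar, in BAT (red) and eWAT (blue). Filled points had an edgeR adjusted p below 0.01. The BAT points range from 0.58 to 8.97 and the eWAT points from 0.05 to 2.56.

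The T cell receptor complex and its first signalling steps were represented by 7 genes. Cd3d, an invariant CD3 chain, stood at 0 to 0.466 CPM (median 0.145) in WT BAT and 3.79 to 13 CPM (median 6.54) in FANKO BAT, a log2 difference of 5.45 ± 0.27 (SE). In eWAT it stood at 0.119 to 0.83 CPM (median 0.406) in WT eWAT and 0.349 to 2.29 CPM (median 1.17) in FANKO eWAT, a log2 difference of 1.44 ± 0.22. The BAT groups were far apart and the eWAT groups overlapped, and this pattern held for its partners. Cd3g, the gamma chain, stood at 0.103 to 0.668 CPM (median 0.317) in WT BAT and 6.59 to 25.2 CPM (median 11.4) in FANKO BAT. In eWAT, Cd3g stood at 0.206 to 1.5 CPM (median 0.749) in WT eWAT and 1.19 to 3.95 CPM (median 1.98) in FANKO eWAT. Cd3e, the epsilon chain, stood at 0 to 0.777 CPM (median 0.311) in WT BAT and 3.37 to 14.7 CPM (median 7.01) in FANKO BAT. In eWAT, Cd3e stood at 0.268 to 1.42 CPM (median 0.537) in WT eWAT and 0.513 to 1.39 CPM (median 0.975) in FANKO eWAT. Unlike Cd3d and Cd3g, Cd3e did not pass the test in eWAT, with a log2 difference of 0.65 ± 0.25 (adjusted p = 0.0226, edgeR quasi-likelihood test), whereas without 1 WT eWAT library that was high in B cell genes (ZT 6, replicate 4) its value was 0.80 (adjusted p = 0.00548). The 3 CD3 genes lie together on chromosome 9, with 1.36 kb between Cd3g and Cd3d and 11.4 kb between Cd3d and Cd3e (GRCm38).

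The upstream sequences of Cd3d and Cd3g are shown because the paired genes point away from each other across this short interval and rose together. They are the 250 bases before the RefSeq start of each gene (GRCm38.p6), written 5′ to 3′ on the strand of the gene, with capitals marking the T-box core AGGTGT or its complement ACACCT.
Cd3d chr9:44981536-44981785, plus strand: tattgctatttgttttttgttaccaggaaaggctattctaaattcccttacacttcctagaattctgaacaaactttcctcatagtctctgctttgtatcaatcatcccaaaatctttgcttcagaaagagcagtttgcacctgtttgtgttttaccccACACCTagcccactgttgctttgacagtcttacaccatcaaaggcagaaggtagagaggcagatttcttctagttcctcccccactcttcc
Cd3g chr9:44980432-44980681, minus strand: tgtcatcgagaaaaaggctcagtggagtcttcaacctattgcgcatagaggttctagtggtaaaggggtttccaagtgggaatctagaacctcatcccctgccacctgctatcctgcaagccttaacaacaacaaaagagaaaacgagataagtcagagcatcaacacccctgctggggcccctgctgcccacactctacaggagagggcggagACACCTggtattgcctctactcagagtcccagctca
The match lies 91 bases before the start of Cd3d and 36 bases before the start of Cd3g. Of the 34 genes, 26 had an entry in the RefSeq promoter table, and the windows of 9 of them (34.6%) held the T-box core on either strand, beside 11.8% of 32851 windows of the same length. For the 26 genes a single window each was used, the one nearest the annotated start, of 32 windows in all. The 32851 windows were not reduced in this way, so the shares of each motif are over unlike sets. The RUNX core TGTGGT was held by 8 of 26 (30.8%), beside 14% of all windows, and the E-box CACGTG, read by the clock factors CLOCK and BMAL1, by 1 of 26 (Lat), beside 6.02% of all windows. Matches of the 3 motifs did not overlap each other in any of the 26 windows.

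Cd247, the zeta chain that also serves receptors of NK cells, was the least changed gene of the complex. It stood at 0.871 to 2.68 CPM (median 1.6) in WT BAT and 3.2 to 15.2 CPM (median 7.4) in FANKO BAT, a log2 difference of 2.28 ± 0.14. In eWAT it stood at 2.59 to 7.34 CPM (median 4.69) in WT eWAT and 4.12 to 5.96 CPM (median 5.11) in FANKO eWAT, and its log2 difference of 0.12 ± 0.12 did not pass the test (adjusted p = 0.415, edgeR quasi-likelihood test). Cd247 shares exon bases with Pou2f1 on the opposite strand and with Gm16565 on the same strand, as Foxp3 does with Flicr on the same strand. The strand setting of the counting was not given in the sources used here. Lck, the kinase that phosphorylates the CD3 chains, stood at 0 to 0.747 CPM (median 0.537) in WT BAT and 9.89 to 33.2 CPM (median 18.4) in FANKO BAT. In eWAT, Lck stood at 0.66 to 2.81 CPM (median 1.15) in WT eWAT and 2.43 to 7.13 CPM (median 3.41) in FANKO eWAT. Zap70, the kinase recruited next, stood at 0 to 0.566 CPM (median 0.17) in WT BAT and 2.82 to 10.6 CPM (median 6.45) in FANKO BAT. In eWAT, Zap70 stood at 0.345 to 1.62 CPM (median 0.646) in WT eWAT and 0.713 to 2.59 CPM (median 1.71) in FANKO eWAT. Lat, the adaptor on which the signal is assembled, stood at 0.105 to 0.987 CPM (median 0.336) in WT BAT and 4.21 to 13.8 CPM (median 6.81) in FANKO BAT. In eWAT, Lat stood at 0.268 to 1.19 CPM (median 0.704) in WT eWAT and 1.01 to 2.84 CPM (median 1.49) in FANKO eWAT. For Lck, Zap70 and Lat the log2 differences were 5.22 ± 0.22, 5.07 ± 0.26 and 4.35 ± 0.21 in BAT and 1.34 ± 0.18, 1.14 ± 0.20 and 1.30 ± 0.19 in eWAT, and all 6 passed the test.

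Co-receptors of both T cell lineages rose together in FANKO BAT. Cd4, the co-receptor of helper T cells, stood at 0.142 to 1.91 CPM (median 0.568) in WT BAT and 13.5 to 41.2 CPM (median 22) in FANKO BAT. In eWAT, Cd4 stood at 0.413 to 1.9 CPM (median 0.88) in WT eWAT and 1.42 to 5.44 CPM (median 3) in FANKO eWAT. Its log2 difference was 5.19 ± 0.21 in BAT and 1.71 ± 0.19 in eWAT. Cd8a, the alpha chain of the co-receptor of cytotoxic T cells, stood at 0 to 0.413 CPM (median 0.162) in WT BAT and 3.16 to 25.4 CPM (median 7.11) in FANKO BAT. In eWAT, Cd8a stood at 0.153 to 1.22 CPM (median 0.326) in WT eWAT and 0.653 to 3.58 CPM (median 1.39) in FANKO eWAT. Cd8b1, the beta chain, which is largely restricted to conventional cytotoxic T cells, stood at 0 to 0.476 CPM (median 0.0733) in WT BAT and 2.21 to 18.1 CPM (median 5.28) in FANKO BAT. In eWAT, Cd8b1 stood at 0 to 0.564 CPM (median 0.18) in WT eWAT and 0.238 to 2.87 CPM (median 0.908) in FANKO eWAT. The BAT differences of Cd8a (5.24 ± 0.30) and Cd8b1 (5.87 ± 0.36) stood beside 5.19 ± 0.21 for Cd4, so helper and cytotoxic markers were both raised. In eWAT, Cd8b1 had a log2 difference of 2.31 ± 0.33 and Cd8a one of 1.84 ± 0.26. Cd5, which restrains T cell receptor signalling, stood at 0 to 0.476 CPM (median 0.181) in WT BAT and 4.1 to 14.8 CPM (median 8.12) in FANKO BAT. In eWAT, Cd5 stood at 0.153 to 0.787 CPM (median 0.546) in WT eWAT and 0.653 to 2.33 CPM (median 1.25) in FANKO eWAT. Cd2, an adhesion receptor of T and NK cells, stood at 0 to 0.593 CPM (median 0.267) in WT BAT and 7.42 to 19.5 CPM (median 11.7) in FANKO BAT and rose by 5.43 ± 0.22 on the log2 scale in BAT. In eWAT Cd2 stood at 1.23 to 4.69 CPM (median 2.61) in WT eWAT and 1.31 to 5.05 CPM (median 2.87) in FANKO eWAT, with nearly equal medians and a log2 difference of 0.23 ± 0.16 that did not pass the test (adjusted p = 0.206, edgeR quasi-likelihood test).

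Receptors that tune T cell activation spanned the widest range of differences in BAT. Cd28, the main costimulatory receptor, stood at 0.0688 to 0.883 CPM (median 0.423) in WT BAT and 6.4 to 21.8 CPM (median 12.7) in FANKO BAT. In eWAT, Cd28 stood at 0.691 to 2.55 CPM (median 1.2) in WT eWAT and 1.1 to 4.76 CPM (median 2.2) in FANKO eWAT. Icos, an inducible relative of CD28, stood at 0 to 0.566 CPM (median 0.164) in WT BAT and 3.48 to 13.2 CPM (median 8) in FANKO BAT. In eWAT, Icos stood at 0.316 to 0.981 CPM (median 0.683) in WT eWAT and 0.238 to 2.31 CPM (median 1.15) in FANKO eWAT. Ctla4, the inhibitory receptor that competes with CD28 for its ligands, stood at 0 to 0.991 CPM (median 0.369) in WT BAT and 2.37 to 13.3 CPM (median 5.98) in FANKO BAT. In eWAT, Ctla4 stood at 0.0547 to 0.5 CPM (median 0.18) in WT eWAT and 0.118 to 1.29 CPM (median 0.598) in FANKO eWAT. These 3 neighbours on chromosome 1 differed in BAT by 4.72 ± 0.23, 5.56 ± 0.26 and 4.03 ± 0.24 on the log2 scale, and in eWAT by 0.80 ± 0.20, 0.70 ± 0.22 and 1.55 ± 0.28. Pdcd1, which encodes the checkpoint receptor PD-1, was all but absent from WT BAT, with 2 reads in all 16 samples and none in 15 of them, and stood at 1.98 to 17.1 CPM (median 4.96) in FANKO BAT, with 1591 reads. The ratio of its scaled levels was 585, with a 95% counting interval from 162 to 4830 that covers counting error only. In eWAT Pdcd1 stood at 0.049 to 0.313 CPM (median 0.163) in WT eWAT and 0.0593 to 1 CPM (median 0.686) in FANKO eWAT. Lag3, an inhibitory receptor for major histocompatibility complex class II, behaved differently from the rest of the list, at 3.14 to 8.63 CPM (median 6.23) in WT BAT and 7.43 to 13.1 CPM (median 8.96) in FANKO BAT. In eWAT, Lag3 stood at 2.26 to 6.73 CPM (median 4.27) in WT eWAT and 3.21 to 8.11 CPM (median 4.75) in FANKO eWAT. It rose by 0.58 ± 0.10 in BAT, the smallest difference of the 34, and its eWAT difference of 0.17 ± 0.10 did not pass the test (adjusted p = 0.15, edgeR quasi-likelihood test). Lag3 lies 16.1 kb from Cd4, the gene next to it in the list on chromosome 6, whose BAT difference was 5.19 ± 0.21. Per length of exon, Lag3 had the highest median level of the 34 genes in WT BAT and WT eWAT, at 2.95 and 2.02 CPM per kilobase of exon (RPKM), where Tbx21 followed in WT BAT at 0.378 RPKM.

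Cytotoxic effector genes rose in both depots. Gzma, a granzyme of NK cells and cytotoxic T cells, stood at 0 to 0.544 CPM (median 0.113) in WT BAT and 6.34 to 15.1 CPM (median 9.72) in FANKO BAT. In eWAT, Gzma stood at 0.307 to 2.13 CPM (median 0.75) in WT eWAT and 1.9 to 10.3 CPM (median 2.86) in FANKO eWAT. Gzmb, the granzyme that cleaves caspases in target cells, stood at 0 to 0.883 CPM (median 0.0872) in WT BAT and 2.95 to 17.1 CPM (median 10.5) in FANKO BAT. In eWAT, Gzmb stood at 0.0595 to 0.738 CPM (median 0.265) in WT eWAT and 0.415 to 4.82 CPM (median 1.02) in FANKO eWAT. Prf1, the pore former that lets granzymes into a target cell, stood at 0.25 to 1.25 CPM (median 0.589) in WT BAT and 3.75 to 12.9 CPM (median 7.82) in FANKO BAT. In eWAT, Prf1 stood at 0.294 to 1.56 CPM (median 0.777) in WT eWAT and 1.01 to 2.92 CPM (median 1.85) in FANKO eWAT. Their log2 differences were 5.97 ± 0.28, 6.12 ± 0.35 and 3.47 ± 0.19 in BAT and 2.06 ± 0.21, 2.25 ± 0.31 and 1.19 ± 0.18 in eWAT. Nkg7, a membrane protein of cytotoxic granules, stood at 0.0679 to 0.85 CPM (median 0.289) in WT BAT and 6.59 to 27.1 CPM (median 11.2) in FANKO BAT. In eWAT, Nkg7 stood at 0.461 to 2.25 CPM (median 0.654) in WT eWAT and 1.3 to 6.47 CPM (median 2.67) in FANKO eWAT. With a median of 12.3 RPKM it had the highest level per exon length of the 34 genes in FANKO BAT, before Gzma at 9.67 RPKM. Gzmk, a granzyme of memory-type cytotoxic T cells, had 2 reads in WT BAT and 507 in FANKO BAT, a ratio of scaled levels of 186 with a 95% counting interval from 51.3 to 1540. Ifng, the gene of interferon gamma, had 1 read in WT BAT and 179 in FANKO BAT, a ratio of 132 with an interval from 23.3 to 5220. In FANKO BAT, Gzmk stood at 0.471 to 5.28 CPM (median 1.42) and Ifng at 0.188 to 1.91 CPM (median 0.5), so both stayed low. In eWAT Gzmk stood at 0 to 0.174 CPM (median 0) in WT eWAT and 0 to 0.505 CPM (median 0.241) in FANKO eWAT, and Ifng stood at 0 to 0.237 CPM (median 0.0443) in WT eWAT and 0 to 0.951 CPM (median 0.189) in FANKO eWAT. Both passed the test in eWAT, with log2 differences of 2.56 ± 0.53 and 1.66 ± 0.39. These rest on 11 and 21 reads in WT eWAT and on 65 and 64 reads in FANKO eWAT. Neither gene reached the filter level in at least 4 samples of either eWAT group. Both entered the test through FANKO BAT, where they reached it. Ifng shares exon bases with Gm49751 on its own strand.

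The upstream sequences of Gzma and Prf1 are shown as genes of the cytotoxic group whose windows hold both the T-box core and the RUNX core. They follow the same convention as above, with capitals marking AGGTGT or ACACCT (T-box) and TGTGGT or ACCACA (RUNX).
Gzma chr13:113100982-113101231, minus strand: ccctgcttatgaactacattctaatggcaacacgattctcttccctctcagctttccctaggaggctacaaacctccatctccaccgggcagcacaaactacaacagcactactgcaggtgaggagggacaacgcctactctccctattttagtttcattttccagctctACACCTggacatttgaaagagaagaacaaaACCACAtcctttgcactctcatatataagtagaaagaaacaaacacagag
Prf1 chr10:61297586-61297835, plus strand: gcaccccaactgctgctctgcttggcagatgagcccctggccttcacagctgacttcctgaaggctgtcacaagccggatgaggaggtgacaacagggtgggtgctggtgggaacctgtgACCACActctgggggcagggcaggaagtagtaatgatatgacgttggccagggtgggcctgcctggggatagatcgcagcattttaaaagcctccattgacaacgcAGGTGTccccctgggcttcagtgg
In Gzma the T-box match lies 80 bases and the RUNX match 50 bases before the start. In Prf1 the RUNX match lies 130 bases and the T-box match 24 bases before the start. Nkg7 was the only other gene among the 26 with both cores, and the windows of Gzmb, Klrb1c, Klrk1, Lck and Ncr1 held the RUNX core without the T-box core. These are matches of letters only, and no binding was measured.

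NK cell receptors were raised in every FANKO BAT sample above every WT BAT sample. Ncr1, which encodes NKp46, the receptor that marks NK cells and related innate lymphoid cells most closely, stood at 0 to 0.747 CPM (median 0.168) in WT BAT and 6.14 to 12.5 CPM (median 10.1) in FANKO BAT. In eWAT, Ncr1 stood at 0.614 to 3 CPM (median 1.17) in WT eWAT and 1.78 to 7.34 CPM (median 2.59) in FANKO eWAT. Klrk1, the activating receptor NKG2D, stood at 0 to 0.991 CPM (median 0.346) in WT BAT and 18.9 to 58.5 CPM (median 33.9) in FANKO BAT. In eWAT, Klrk1 stood at 2.14 to 4.63 CPM (median 2.95) in WT eWAT and 3.96 to 21.2 CPM (median 7.3) in FANKO eWAT. Klrd1, the CD94 chain of the NKG2 receptors, stood at 0 to 0.45 CPM (median 0.152) in WT BAT and 6.12 to 22.9 CPM (median 11.1) in FANKO BAT. In eWAT, Klrd1 stood at 0.46 to 1.75 CPM (median 0.708) in WT eWAT and 0.873 to 6.8 CPM (median 2.08) in FANKO eWAT. Klrb1c, the NK1.1 antigen, stood at 0 to 0.593 CPM (median 0.121) in WT BAT and 2.73 to 8.44 CPM (median 5.81) in FANKO BAT. In eWAT, Klrb1c stood at 0.196 to 1.78 CPM (median 0.948) in WT eWAT and 1.1 to 4.67 CPM (median 1.77) in FANKO eWAT. Their log2 differences in BAT were 5.45 ± 0.22 for Ncr1, 6.45 ± 0.21 for Klrk1, 5.91 ± 0.24 for Klrd1 and 5.11 ± 0.26 for Klrb1c. In eWAT they were 1.24 ± 0.17, 1.46 ± 0.15, 1.47 ± 0.19 and 1.12 ± 0.19, and all 4 passed the test. Klrb1c shares exon bases with Gm44511 on the same strand, so its count may be incomplete.

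Transcription factors of lymphocyte subsets differed more among themselves. Eomes, a T-box factor of NK cells and cytotoxic T cells, stood at 0 to 0.296 CPM (median 0.0344) in WT BAT and 2.45 to 10.3 CPM (median 5.38) in FANKO BAT, a log2 difference of 5.92 ± 0.37, and at 0.0893 to 0.875 CPM (median 0.15) in WT eWAT and 0.238 to 2.67 CPM (median 0.875) in FANKO eWAT, a log2 difference of 1.77 ± 0.30. Tbx21, which encodes T-bet, the T-box factor of helper type 1 and NK cells, stood at 0.248 to 2.15 CPM (median 0.94) in WT BAT and 2.25 to 5.21 CPM (median 3.7) in FANKO BAT. In eWAT, Tbx21 stood at 0.179 to 1.19 CPM (median 0.506) in WT eWAT and 0.296 to 2.09 CPM (median 1.04) in FANKO eWAT. The BAT ranges of Tbx21 lay close together without overlapping, and its log2 differences were 2.12 ± 0.19 in BAT and 0.88 ± 0.19 in eWAT. Tcf7, which encodes TCF1, a factor of naive and memory T cells, stood at 0.296 to 1.43 CPM (median 0.636) in WT BAT and 6.42 to 19 CPM (median 10.8) in FANKO BAT. In eWAT, Tcf7 stood at 0.765 to 3.75 CPM (median 1.24) in WT eWAT and 0.713 to 4.42 CPM (median 1.78) in FANKO eWAT. Gata3, the factor of helper type 2 cells and of type 2 innate lymphoid cells, stood at 0 to 0.408 CPM (median 0.0964) in WT BAT and 1.09 to 3.8 CPM (median 2.28) in FANKO BAT. In eWAT, Gata3 stood at 0.274 to 1.19 CPM (median 0.631) in WT eWAT and 0.296 to 1.08 CPM (median 0.789) in FANKO eWAT. Foxp3, the defining factor of regulatory T cells, stood at 0.296 to 1.84 CPM (median 0.884) in WT BAT and 2.35 to 6.86 CPM (median 4.02) in FANKO BAT. In eWAT, Foxp3 stood at 0.625 to 1.57 CPM (median 0.948) in WT eWAT and 0.65 to 1.54 CPM (median 0.984) in FANKO eWAT. In BAT, Tcf7, Gata3 and Foxp3 differed by 3.92 ± 0.21, 4.36 ± 0.25 and 2.19 ± 0.16. In eWAT none of the 3 passed the test, with log2 differences of 0.44 ± 0.19 (adjusted p = 0.0405), 0.12 ± 0.18 (adjusted p = 0.579) and 0.05 ± 0.16 (adjusted p = 0.791) by the edgeR quasi-likelihood test. Foxp3 shares exon bases with Ccdc22 and Ppp1r3f, Eomes with Gm33460 and Gata3 with Gm13256 on the opposite strand, and Gata3 also with 9230102O04Rik on its own strand.

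Receptors for the cytokines that sustain these cells were higher in FANKO mice in both depots. Il2rb, the beta chain shared by the receptors of both interleukin-2 and interleukin-15, stood at 0.523 to 2.41 CPM (median 0.867) in WT BAT and 23.1 to 64.3 CPM (median 39.1) in FANKO BAT. In eWAT, Il2rb stood at 2.12 to 6.75 CPM (median 3.34) in WT eWAT and 4.07 to 18.1 CPM (median 8.5) in FANKO eWAT. Il7r, the receptor chain that sustains naive and memory T cells, stood at 0 to 0.566 CPM (median 0.296) in WT BAT and 15.2 to 42 CPM (median 27.5) in FANKO BAT. In eWAT, Il7r stood at 0.978 to 5.4 CPM (median 1.67) in WT eWAT and 1.25 to 7.25 CPM (median 3.62) in FANKO eWAT. Neither gene overlapped between the BAT groups. Their log2 differences were 5.29 ± 0.20 and 6.52 ± 0.25 in BAT, and 1.17 ± 0.16 and 0.78 ± 0.19 in eWAT.

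The question whether the genotype difference was of the same size in the depots was addressed by the difference of the 2 log2 fold changes. It was smaller in eWAT for 33 of the 34 genes, against a background of 32.2% of tested genes, with a median of -3.93 beside -0.04 over all tested genes. With library size alone the median was -4.76 beside -0.88 over all tested genes. Single genes ranged from -7.18 ± 0.79 for Pdcd1 and -5.74 ± 0.33 for Il7r to -1.24 ± 0.27 for Tbx21. Lag3 was not called (-0.41 ± 0.14, adjusted p = 0.0103, edgeR quasi-likelihood test), but passed under 7 alternatives. These were DESeq2 (-0.51, adjusted p = 0.000988), library size alone (-1.25, adjusted p = 4.0e-11), RLE size factors (adjusted p = 0.00141), scaling without mitochondrial genes (adjusted p = 0.00941), no filter on low counts (adjusted p = 0.00957), a minimum count of 30 (adjusted p = 0.000804) and the animal block (adjusted p = 0.00157, all but DESeq2 by edgeR).

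Most of the genes were higher in eWAT than in BAT of WT mice. Against WT BAT, 24 of the 34 genes were higher in WT eWAT, against a background of 41.1%, and 1 was lower, against a background of 32.7%. Only 7 of the 34 reached the filter level of 0.632 CPM in WT BAT, so for most genes the WT BAT level was near the floor. A fit of the WT samples alone tested 27 of the genes and called 22 higher in eWAT. With limma-voom 21 were higher. The median log2 difference was 1.54, beside 0.11 over all tested genes. Cd2 (3.22 ± 0.24), Klrk1 (2.95 ± 0.25), Il7r (2.81 ± 0.30) and Klrd1 (2.06 ± 0.30) were the 4 genes for which every WT eWAT sample lay above every WT BAT sample, a separation found for 15.1% of tested genes. The share of the 34 genes separated in this way was below that of all tested genes, so this count is no result about them. The gene that was lower was Lag3 (-0.51 ± 0.10). With library size alone Lag3 was 0.23 (adjusted p = 0.0363, edgeR quasi-likelihood test), where the median of all tested genes was 0.855. Tbx21 narrowly missed the threshold (-0.585, adjusted p = 0.0106, edgeR quasi-likelihood test). It was called lower by edgeR under some alternatives, among them scaling without mitochondrial genes (adjusted p = 0.00856) and leaving out replicate 4 (adjusted p = 0.000484). With library size alone Tbx21 was 0.157. Foxp3 (0.09 ± 0.17) and Ctla4 (-0.79 ± 0.32) were among the 9 genes that did not pass the test. For 21 of the 34 genes every FANKO BAT sample lay above every FANKO eWAT sample, where 5.18% of tested genes were separated in this way. Mean levels of the FANKO depots were not tested against each other. Lag3, Tbx21 and Ctla4 had higher medians in BAT than in eWAT in both genotypes. The comparisons between genotypes and between depots shared samples.

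Samples within FANKO BAT differed in level, and by unequal factors for different genes. The ratio of the highest to the lowest of the 16 samples was 1.76 for Lag3, 2.04 for Ncr1, 2.32 for Tbx21 and 2.37 for Gzma. It was 8.05 for Cd8a, 8.19 for Cd8b1, 8.68 for Pdcd1, 10.2 for Ifng and 11.2 for Gzmk. The 2 FANKO BAT libraries with the highest summed level, replicates 1 and 4 at ZT 6 with 601 and 566 CPM, held the highest value of the 16 for 17 and 10 genes. Replicate 1 was also among the 10 libraries high in muscle or epididymis genes. In FANKO eWAT, replicate 3 at ZT 6, with a summed level of 157 CPM, held the highest value for 18 genes. In WT eWAT, replicate 4 at ZT 22, with 62.3 CPM, held it for 13 genes.

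The time of day of collection was examined with a cosine curve of 24 h for each depot and genotype. In WT BAT 1 gene, Tbx21, was called (adjusted p = 0.000991, edgeR quasi-likelihood test), against a background of 13.9% of tested genes (3 of the 34 had an unadjusted p below 0.05). Only 7 of the 34 genes reached the filter level there, so the count in WT BAT is a description. The level of Tbx21 in WT BAT was 0.649 ± 0.327 CPM at ZT 6, 0.413 ± 0.157 CPM at ZT 10, 1.55 ± 0.461 CPM at ZT 18 and 1.09 ± 0.248 CPM at ZT 22 (SD, n = 4 each), so every ZT 18 sample lay above every ZT 6 and ZT 10 sample. In FANKO BAT the means of Tbx21 were 4.29 ± 1.15, 3.03 ± 0.770, 3.31 ± 0.574 and 3.98 ± 0.798 CPM at the same times (SD, n = 4 each), and the ranges of all 4 overlapped. The difference of the Tbx21 curves between the genotypes did not pass the test in BAT (adjusted p = 0.019, edgeR quasi-likelihood test). The Tbx21 call in WT BAT was lost without replicate 1 or without replicate 2 of each group.

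In FANKO BAT 0 genes were called (11 at an unadjusted p below 0.05, 1 by DESeq2 and 2 by limma-voom), against a background of 2.84%. The backgrounds given for rhythm are shares called by edgeR at an adjusted p below 0.01. No share of all tested genes was taken for the counts at an unadjusted p, by DESeq2 or by limma-voom. Those counts are descriptions only. In WT eWAT 0 were called (1 at an unadjusted p below 0.05, 0 by DESeq2 and by limma-voom), against 9.36%. In FANKO eWAT 1 gene was called, Gzmb (adjusted p = 0.00885, edgeR quasi-likelihood test), against 6.77%, and 10 had an unadjusted p below 0.05. The Gzmb level there was 1.94 ± 1.70 CPM at ZT 6, 1.15 ± 0.651 CPM at ZT 10, 0.677 ± 0.155 CPM at ZT 18 and 2.59 ± 1.80 CPM at ZT 22 (SD, n = 4 each), with overlap between most times, and the call was lost without replicate 1, 2 or 3 of each group. Curves of WT and FANKO differed for 0 of the 34 genes in BAT (4 at an unadjusted p below 0.05, 2 by DESeq2 and 0 by limma-voom) and for 0 in eWAT (4 at an unadjusted p below 0.05, 0 by DESeq2 and by limma-voom), against backgrounds of 2.77% and 1.15%.

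**Figure D3:**
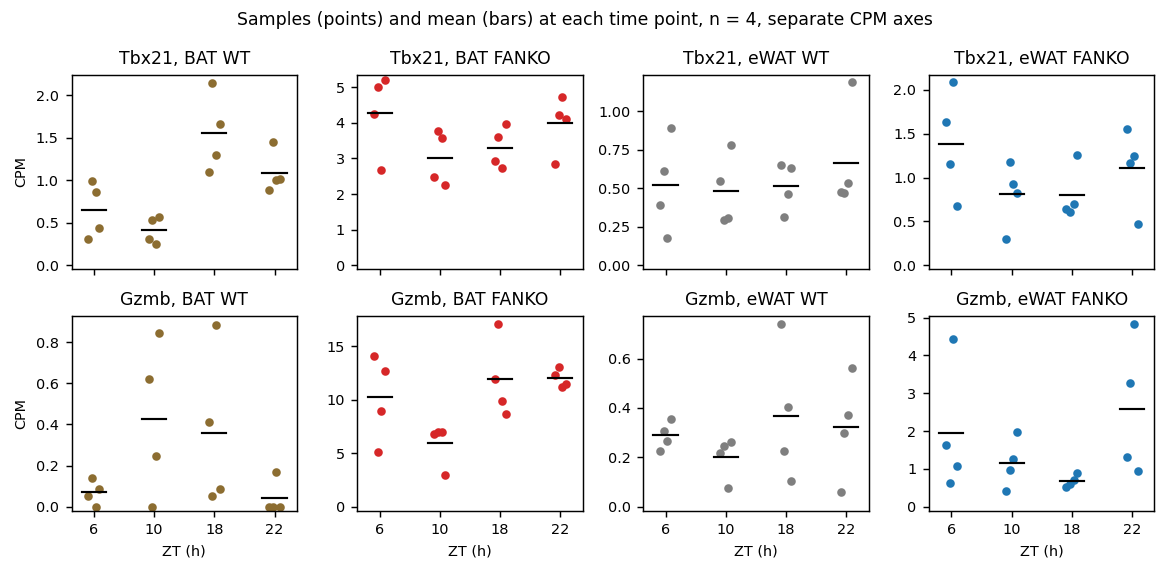
CPM of Tbx21 (top) and Gzmb (bottom) at each time point in the 4 combinations of depot and genotype. Points are the 4 samples, bars their mean, and each panel has its own axis. In WT BAT the 4 Tbx21 samples at ZT 18 lie above all samples at ZT 6 and ZT 10.

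At single time points the BAT difference was present throughout. At ZT 6 all 34 genes were higher in FANKO BAT (background 24.4%), with a median log2 difference of 5.88. At ZT 10, ZT 18 and ZT 22, 33 genes were higher at each time (backgrounds 23.3%, 21.5% and 22.6%), Lag3 being the exception each time, with medians of 4.79, 4.97 and 5.38. In eWAT, 20 genes were higher at ZT 6 (background 16.9%), 16 at ZT 10 (background 16%), 2 at ZT 18 (background 8.54%) and 15 at ZT 22 (background 12.6%), and the median log2 differences were 1.54, 1.42, 0.83 and 1.33. The 2 genes called at ZT 18 were Cd4 and Lat. At that time the share of the 34 genes called was below that of all tested genes, so the count is no result about them. The summed level in FANKO eWAT was 97.6 ± 39.9, 79.9 ± 21.2, 65.1 ± 10.9 and 81.4 ± 24.5 CPM at ZT 6, 10, 18 and 22, and in WT eWAT 40.9 ± 8.69, 34.4 ± 5.28, 43.6 ± 9.53 and 40.6 ± 14.5 CPM (SD, n = 4 each). Whether the difference at ZT 18 was smaller than at the other times was not tested in itself. The counts in eWAT fell to 10 and 7 at ZT 6 without replicate 2 or 3, to 5 at ZT 10 without replicate 2, to 0 or 1 at ZT 18 without any single replicate, and to 6 and 5 at ZT 22 without replicate 2 or 3. Without the libraries high in muscle or epididymis genes, which left 2 FANKO samples at ZT 22, 0 genes were called there.

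**Figure D4:**
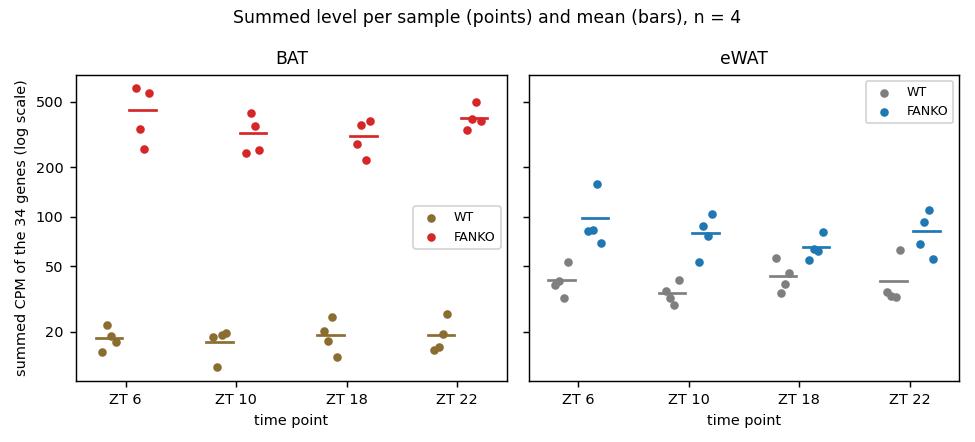
Summed CPM of the 34 genes in each sample (points) and the mean of 4 samples (bars) by time point, on a log axis, in BAT (left) and eWAT (right). FANKO BAT samples lie between 221 and 601 CPM and WT BAT samples between 12.2 and 25.5 CPM, whereas in eWAT the genotypes lie closer together.

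Further lists of genes used by T and NK cells mostly moved in the same direction in BAT, where 33.1% of all tested genes were higher and 33.9% lower. Some of these genes are not particular to T and NK cells. In WT BAT the median summed level was 294 CPM for the signalling list and 100.7 CPM for the naive and recirculating list. It was 18.68 CPM there for the 34 genes. The part of other cells in these lists was not tested. Of 28 further genes of T cell receptor signalling, 27 were higher and 1 was lower in FANKO BAT, with a median log2 difference of 4.48. Examples were Ptprc, the CD45 phosphatase common to leukocytes (4.89 ± 0.14), and Vav1, a guanine nucleotide exchange factor of blood cells (4.77 ± 0.14). The gene that was lower was Plcg1 (-0.55 ± 0.05), a phospholipase made in many cell types. All 7 constant regions of the T cell receptor were higher in FANKO BAT, with a median of 4.76, among them Trac (4.02 ± 0.21) and Trbc2 (5.86 ± 0.29) of the alpha beta receptor and Trdc (5.18 ± 0.29) of the gamma delta receptor. Of 25 further NK and cytotoxic genes, 24 were higher and 0 were lower, with a median of 4.79, Il18rap, a chain of the interleukin-18 receptor, among them (5.96 ± 0.17). Of 9 tested genes of naive and recirculating T cells, of 10 listed, 8 were higher and 1, S1pr1, was lower (-0.37 ± 0.09), with a median of 1.62. The chemokine receptor Ccr7 (6.06 ± 0.26), which guides naive lymphocytes to lymph nodes, was among the 8. Of 12 tested genes of regulatory and helper type 2 cells, of 15 listed, 10 were higher and 0 were lower, with a median of 2.42, Tnfrsf4 (2.78 ± 0.15) and Klrg1 (4.68 ± 0.35) among them.

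In eWAT these lists were less uniform, and 27.6% of all tested genes were higher there and 22.8% lower. Of the 28 signalling genes 16 were higher and 6 lower in FANKO, with a median log2 difference of 0.53. Ubash3a, a negative regulator of T cell receptor signalling (1.44 ± 0.19), and Cd6, a T cell surface receptor (1.72 ± 0.23), were higher, and the 6 that were lower were Plcg1, Malt1, Cbl, Dgka, Cblb and Nfatc2, of which Cblb had the largest difference (-0.48 ± 0.12). Of the 7 constant regions 3 were higher, with a median over the 7 of 0.49, which were Trac (1.94 ± 0.20), Trbc2 (1.61 ± 0.23) and Trbc1. Tcrg-C1, a gamma chain region, had a log2 difference of -0.63 ± 0.30 and did not pass the test. Of the 25 NK and cytotoxic genes 16 were higher and 1, Serpinb6b, was lower, with a median of 0.99, and Ccl5, a chemokine of cytotoxic lymphocytes, rose by 3.15 ± 0.26. Of the naive and recirculating list 2 were higher, Ccr7 among them (1.47 ± 0.20), and 3 were lower, Igfbp4, Klf2 and Bach2, with a median of -0.15. Of the regulatory and helper type 2 list 2 were higher, Il10 (1.76 ± 0.31) and Tnfrsf4 (0.54 ± 0.15), and 3 were lower, with a median of 0.15. The 3 were Tnfrsf18, Il1rl1 (-0.70 ± 0.11), the interleukin-33 receptor of tissue regulatory T cells and type 2 innate lymphoid cells, and Ikzf4 (-0.83 ± 0.26). The share of the signalling list that was lower (21.4%) lay near or below that of all tested genes. So did the share of the naive and recirculating list that was higher (22.2%). The same held for the shares of the regulatory and helper type 2 list that were higher (16.7%) and lower (25%). These counts are no result about the lists. The lower share of the naive and recirculating list (33.3%) rests on 9 tested genes.

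Macrophage, dendritic cell and B cell markers mostly moved with the T and NK genes in BAT, and adipocyte and red cell markers were lower. The part of other cell types in the result was not tested. The shares of all tested genes, 33.1% higher and 33.9% lower, are the background of these counts. Macrophage markers were higher in FANKO BAT for 10 of 12 genes and lower for 2 (Cd163 and Cd14), and their summed level had a median of 167 CPM (range 148 to 277) in WT and 1157 CPM (range 802 to 1903) in FANKO BAT. Dendritic cell markers were higher for 7 of 8 genes and lower for 1 (Zbtb46), with 42.1 CPM (range 32.4 to 47.4) and 99.2 CPM (range 73.1 to 167). B cell markers were higher for 10 of 10 genes, with 6.69 CPM (range 3.23 to 9.33) and 42.7 CPM (range 19.2 to 119). Adipocyte markers were lower for 7 of 8 genes and higher for 0, with 17610 CPM (range 14850 to 20720) and 8292 CPM (range 5673 to 10070), so that the groups did not overlap. Red cell markers were lower for 5 of 5 genes, with 402 CPM (range 225 to 544) and 146 CPM (range 80.3 to 229). Of the neutrophil list 2 of 3 tested genes were higher, and of the mast cell list 3 of 5. The summed level of the mast cell list had a median of 67.5 CPM (range 14.6 to 165) in WT and 59.4 CPM (range 37.8 to 100) in FANKO BAT. Of the skeletal muscle and epididymis lists 0 of 8 and 0 of 7 tested genes were called. Of 7 thymocyte genes 3 were tested, of which Dntt and Themis were higher and Cd1d1 lower, and Rag1, Rag2, Ptcra and Arpp21 did not pass the filter.

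The background of the counts in eWAT was 27.6% higher and 22.8% lower. B cell markers were lower in FANKO eWAT for 7 of 10 genes and higher for 0, Ms4a1 (-1.21 ± 0.30) among the 7, and their summed level had a median of 18.4 CPM (range 13.4 to 85.3) in WT and 14.6 CPM (range 10.3 to 19.6) in FANKO. The highest WT value was that of replicate 4 at ZT 6. Without this library, a choice made after seeing the data, 4 of the 10 B cell genes rather than 7 were lower, with a median of -0.68 rather than -0.86, and 28 of the T and NK genes were higher in FANKO eWAT. By time point 2 B cell genes were lower at ZT 6 and 0 were called at ZT 10, 18 and 22 (2, 1 and 3 at an unadjusted p below 0.05). The background above is for the mean level over all times. No share of all tested genes is given for these counts by time point, which are descriptions only. Macrophage markers were divided, with 5 of 12 higher and 3 lower, and their sums of 1077 CPM (range 889.5 to 1253) in WT and 1073 CPM (range 844 to 1493) in FANKO overlapped. Dendritic cell markers were higher for 4 of 8 genes, Itgax (1.44 ± 0.15) among them, and lower for 1. Adipocyte markers were higher for 2 of 8 genes and lower for 3, and mast cell markers were higher for 1 of 5 tested genes and lower for 3. The neutrophil list had 2 of 3 tested genes higher, the skeletal muscle list 1 of 8 higher, the epididymis list 0 of 7 called, the red cell list 1 of 5 lower, and the thymocyte list 1 of 3 tested genes higher and 1 lower. The macrophage share that was lower (25%) and the adipocyte share that was higher (25%) lay near the background. The part of these cell types in the eWAT result was not tested.

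**Figure D5:**
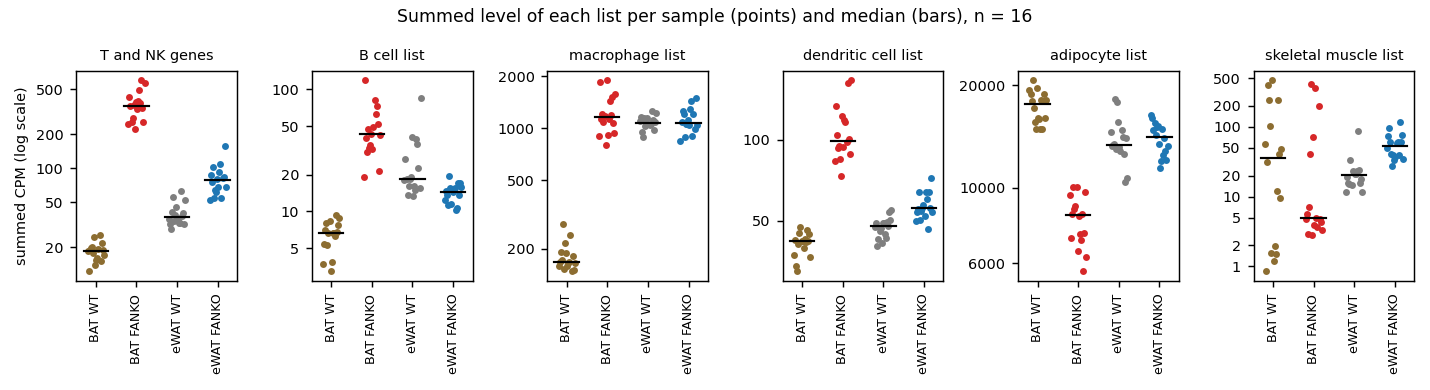
Summed CPM in each sample (points) and the median of 16 samples (bars), on log axes, for the 34 T and NK genes and for marker lists of B cells, macrophages, dendritic cells, adipocytes and skeletal muscle. In BAT the immune lists are higher and the adipocyte list lower in FANKO, and in eWAT the T and NK genes are higher in FANKO and the B cell medians are 18.4 CPM in WT and 14.6 CPM in FANKO.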

How the data were processed

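RNA was sequenced from BAT and eWAT in 64 samples. The authors deposited 1 table of raw read counts per gene, which they made with STAR 2.5.3a and featureCounts 1.5.3 against GRCm38.p5, per the submitters' processing notes, which also list FastQC 0.11.5 and MultiQC 1.2. The library kit kept strand, and the strand setting of the counting was not given in the sources used here. Symbols, coordinates and exon lengths came from GENCODE M21 (GRCm38), which gave a symbol to 52489 of 52636 identifiers, and upstream sequences came from RefSeq (GRCm38.p6). Column names matched the labels for all samples, and no libraries held identical counts.

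The edgeR filter filterByExpr (min.count 10, min.total.count 15) was applied to the 16 groups and kept 20249 genes. Counts were scaled by TMM and fitted with edgeR 4.0.16 (R 4.3.3) in a quasi-likelihood model of 12 coefficients, a mean and a 24 h cosine and sine for each depot and genotype, over all 64 samples. Differences at single time points came from a second model of 16 group means. P-values were adjusted over all tested genes by Benjamini and Hochberg and called below 0.01, and standard errors were derived from the F statistic. Tests were two-sided. Counting intervals for ratios were exact at 95%. The test script was tested on simulated data. Figures were drawn with matplotlib 3.10.9. The members and gene lists were chosen with earlier results of these data known. All 34 members are named, by role, with group values (lowest, median and highest of 16 samples), and time point values are given for those called rhythmic. From each other list, up to 3 genes with the smallest p per depot could be named. Others, named for their direction or their receptor chain (Trdc, Tcrg-C1, Plcg1, S1pr1, Serpinb6b, Bach2, Ikzf4, Tnfrsf18 and the like), were chosen after their values were seen.

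Alternatives were DESeq2 1.42.0, limma-voom 3.58.1, other scalings, filters, thresholds and blocks, time as a factor, separate fits, and leaving out each replicate. Leaving out the library high in B cell genes, or those high in muscle or epididymis genes, was added after seeing the data. Nothing in the labels says how the animals behind the samples relate, so p-values measure the spread between these samples. Sequencing depth, 6117343 to 30544847 reads, sets the precision of genes with few reads. Some genes of the other lists are not reported here by name. Reads shared with related granzyme or NK receptor genes were not examined.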

Additional observations from a re-analysis of the deposited data

Results flagged for a closer look

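A total of 33 of the 34 genes had a genotype difference that itself differed between the depots by the edgeR test of the interaction, and each was smaller in eWAT. The values are the log2 fold change of FANKO against WT in eWAT minus that in BAT. For the receptor complex and its signalling they were Cd3d -4.01, Cd3e -4.09, Cd3g -3.85, Cd247 -2.17, Lck -3.87, Zap70 -3.94 and Lat -3.05. For co-receptors and surface receptors they were Cd4 -3.48, Cd8a -3.40, Cd8b1 -3.55, Cd5 -3.96 and Cd2 -5.20. Costimulation and checkpoint receptors gave Cd28 -3.92, Icos -4.87, Ctla4 -2.48 and Pdcd1 -7.18. Cytotoxic effectors and interferon gamma gave Gzma -3.91, Gzmb -3.87, Gzmk -4.41, Prf1 -2.28, Ifng -4.26 and Nkg7 -3.65. NK receptors gave Klrb1c -3.99, Klrd1 -4.44, Klrk1 -4.99 and Ncr1 -4.22. Transcription factors gave Foxp3 -2.14, Tbx21 -1.24, Eomes -4.15, Gata3 -4.24 and Tcf7 -3.48, and cytokine receptors gave Il2rb -4.12 and Il7r -5.74.

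The summed level of the 34 genes and the levels of Tbx21 and Gzmb, the genes called rhythmic, were examined in each of the 16 groups of 4 samples for a sample far from the other 3 by Dixon's ratio. In 7 of these 48 comparisons 1 sample stood apart, and chance alone marks about 1 in 20 groups. The summed level stood apart at 12.2 CPM in WT BAT at ZT 10, where the nearest other sample had 18.6 CPM. It also stood apart at 62.3 CPM in WT eWAT at ZT 22 (nearest 34.8 CPM) and at 157 CPM in FANKO eWAT at ZT 6 (nearest 82.9 CPM). Tbx21 stood apart at 1.19 CPM in WT eWAT at ZT 22 and at 1.26 CPM in FANKO eWAT at ZT 18. Gzmb stood apart at 0.167 CPM in WT BAT at ZT 22, where the other 3 samples had no read (the ratio is then 1 by construction, so the rate of 1 in 20 does not apply), and at 2.95 CPM in FANKO BAT at ZT 10 (nearest 6.77 CPM).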

How the results depend on the processing

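Over 17 alternatives the number of genes higher in FANKO stayed between 33 and 34 in BAT (median log2 difference 5.18 to 5.89) and between 23 and 29 in eWAT (1.06 to 1.44), and the number with a smaller difference in eWAT between 32 and 34. At a minimum count of 30 only 33 genes were tested. Over 18 alternatives 21 to 30 genes were higher in WT eWAT than in WT BAT. Leaving out each replicate in turn gave 34 in BAT, 23 to 28 in eWAT, 32 to 33 for the depot difference and 21 to 25 for WT depots. Scaling by library size alone moved the median log2 difference of all tested genes. It went from 0 to 0.58 for the genotypes in BAT and from -0.025 to -0.27 in eWAT. For WT eWAT against WT BAT it went from 0.111 to 0.855. The causes of the changes below were not tested.

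In eWAT, Foxp3 became -0.002 with RLE size factors, -0.19 with library size alone, -0.018 at a minimum count of 30 and -0.002 without the libraries high in muscle or epididymis genes. Leaving out each replicate gave -0.11 to 0.21 (-0.105 without replicate 3). With library size alone, Cd247 was -0.126, Gata3 -0.12, Cd2 -0.015 and Lag3 -0.068 in eWAT, and leaving out each replicate gave -0.001 to 0.153 for Cd247 and -0.061 to 0.326 for Gata3. Between WT depots, library size alone gave 0.157 for Tbx21 and 0.234 for Lag3, limma-voom gave -0.137 for Gzmk, and leaving out each replicate gave -0.009 to 0.214 for Foxp3.

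Rhythm calls rested on few genes. At an adjusted p below 0.05, 2 genes were called in WT BAT, 2 in FANKO BAT, 4 in FANKO eWAT and 2 for the difference in BAT. DESeq2 called 2 in WT BAT, 1 in FANKO BAT and 2 for the difference in BAT, and limma-voom called 2 in FANKO BAT and 0 in FANKO eWAT. Library size alone gave 0 in FANKO eWAT. Leaving out each replicate gave 0 to 1 in WT BAT and 0 to 2 in FANKO eWAT. Counts at single times in eWAT moved most. With library size alone they were 13, 7, 1 and 8 at ZT 6, 10, 18 and 22, and with limma-voom 13, 9 and 0 at ZT 6, 10 and 18. At ZT 18 there were 6 at an adjusted p below 0.05, 1 with RLE size factors, 1 with no filter on low counts and 1 without libraries high in muscle or epididymis genes, and that last alternative gave 0 at ZT 22. Leaving out each replicate gave 7 to 22, 5 to 13, 0 to 1 and 5 to 20 genes in that order of times.

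Correlations of same-numbered samples were over 0.1 in 3 of 16 pairs between WT and FANKO in BAT (median 0.061) and 3 of 16 in eWAT (0.044). Between depots they were over 0.1 in 5 of 16 pairs in WT (median 0.052, highest 0.306) and 5 of 16 in FANKO (0.059, highest 0.212). Differently numbered samples were not compared, so these values cannot decide whether same-numbered samples share an animal. The numbers were not taken as pairs in the main tests. With the replicate as a block, 34 genes were higher in BAT and 27 in eWAT, and 0 rather than 1 were rhythmic in FANKO eWAT. With the animal replicate block 34 genes had a smaller difference in eWAT. No library exceeded 5 times its group's median for the B cell list, so that alternative could not be run. In WT BAT the depth limits the fold changes of Pdcd1, Gzmk and Ifng, which had 1 or 2 reads there.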
